A study of Mus musculus with 6 samples.

Results

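Gli3 binding sites outside coding genes, 20 to 100 kb from a protein-coding transcription start site (TSS), were taken from the list of Gli3 ChIP-seq peaks of the mouse cortex. A site was included when its midpoint was on chromosomes 1 to 19, more than 2 kb from the TSS of every annotated transcript, outside the body of every protein-coding gene, and more than 20 kb but at most 100 kb from the nearest protein-coding TSS of the GENCODE M21 annotation (mm10). There were 488 such sites among the 4114 sites of the list, 11.9% of all, and they made up 22.3% of the 2190 sites on these chromosomes that were not within 2 kb of a TSS. The list came from wild-type mouse embryos at embryonic day 15, with no transgene, mutant allele or agent in any group. Dissected cerebral cortex gave 3 Gli3 ChIP libraries and 3 input DNA libraries, so progenitors, neurons and nonneural cells were mixed, and the cell type in which a site was bound is not known. The replicates were joined by the authors into 1 list of positions with no height, score or p-value. The read depth behind a site is therefore unknown, no error between replicates can be given, and no cell type marker could be checked.

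Gli3 is a zinc finger transcription factor at the end of the Sonic hedgehog (Shh) pathway. Without Shh, it is processed to a shortened form that represses target genes, and Shh signaling through Smoothened reduces this processing. In the developing cortex the repressor form is known for restraining ventral and glial programs in dorsal progenitors. Sites far from promoters are often enhancers or silencers, which can act on a TSS many kilobases away and need not act on the nearest one. The nearest gene is used below as a label of position, not as a target.

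Gli proteins recognize a sequence whose conserved part, GACCACCCA, is here called the GLI core, and 69 of the 488 sites had at least 1 exact copy on either strand. The sequences below show it in capitals with 10 bases to either side, read 5′ to 3′ on the strand of the core, from GRCm38, the assembly of mm10. They were chosen because the nearest gene is in a list of cortical or pathway genes, because the site overlapped an enhancer tested in embryos, or because the site had more than 1 core. The last, near *Sall1*, was instead shown because its site was the closest with a core to the 20 kb bound.
*Gas1*, chr13:60085162-60085170, minus strand: ccaagccccaGACCACCCAcgctggcagc
*Sox1*, chr8:12432426-12432434, plus strand: atccaagagtGACCACCCAttggtccatc
*Id4*, chr13:48229322-48229330, plus strand: tcccctgaggGACCACCCAcaagatggta
*Slc1a3*, chr15:8629613-8629621, minus strand: actccggggaGACCACCCAgcttcctctc
*Spred2*, chr11:19836183-19836191, plus strand: tgtccacaagGACCACCCActctgctaca
*Spata13*, enhancer mm1122, chr14:60554662-60554670, plus strand: aagggacttaGACCACCCActggccactt
*Hmga2*, enhancer mm569, chr10:120552021-120552029, plus strand: gggttatggcGACCACCCAggtggtgcca
*Olig2* side, enhancer mm817, chr16:91141430-91141438, plus strand: gaaggcagggGACCACCCActctgggtgt
*Laptm5*, first core, chr4:130865586-130865594, minus strand: ttccttccctGACCACCCAtgtctgtctt
*Laptm5*, second core, chr4:130866063-130866071, minus strand: cccccagaatGACCACCCAcacatctccc
*Ubl3*, first core, chr5:148631571-148631579, minus strand: tgccagagcaGACCACCCAcccagagcat
*Ubl3*, second core, chr5:148632554-148632562, plus strand: ctggcatcagGACCACCCAgagctggcga
*Lsm14a*, 1 of 5 cores, chr7:34431325-34431333, minus strand: ccaccaacagGACCACCCAccaacaggac
*Sall1*, closest site with a core to the 20 kb bound, chr8:89064347-89064355, minus strand: ggcctcggggGACCACCCAaagtcaccac

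Around the core, 1 position on either side was far from the base composition of the sites. The base just before the core was A in 41.3% and G in 42.7% of the 75 cores, and C in 4% and T in 12%. The base just after it was C in 44% and G in 36%, against 10.7% A and 9.33% T. In the central 500 bp of the sites each base made up 24.7 to 25.1%. The sequences above show both preferences, as in the A and C that enclose the core of *Gas1*. The core was followed by C at 33 of the 75 copies, among them the repeated copies near *Lsm14a*, which are not independent.

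Most sites with a core had a single copy. There were 66 sites with 1 core, 2 with 2 cores and 1 with 5. The last, 3035 bp long (chr7:34429463-34432497), lay 41.3 kb from the TSS of *Lsm14a*, which encodes an RNA-binding protein of processing bodies. Its 5 cores began between 34431325 and 34431405, at spacings of 16 or 32 bp within 89 bp, as a tandem repeat in which the 29-base sequence shown above recurred with a change of at most 1 base. The pairs at the *Laptm5* and *Ubl3* sites were 477 and 983 bp apart and were not part of a repeat of this kind. *Laptm5* encodes a lysosomal membrane protein of hematopoietic cells.

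The core was present in 14.1% of the sites (69 of 488, 95% Wilson interval 11.3 to 17.5%), and over all 4028 listed sites on chromosomes 1 to 19 the share was 12.2%. Flanks of the same length, each 1 site length from the edge, held it in 14 of 965 cases (1.45%, 0.866 to 2.42%). The share in sites was 9.75 times that in flanks (95% interval 5.54 to 17.1). These intervals cover the counting error over sites and not the variation between embryos. The core lay toward the middle of the site: 41 of 75 cores (54.7%, 43.4 to 65.4%) were in the middle 33.3% of the site length, and 36 of 70 (51.4%) were there when the tandem copies near *Lsm14a* were left out. The median distance of a core from the site midpoint was 314 bp. The median width was 1823 bp for sites with a core and 1905 bp for those without.

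**Figure D1:**
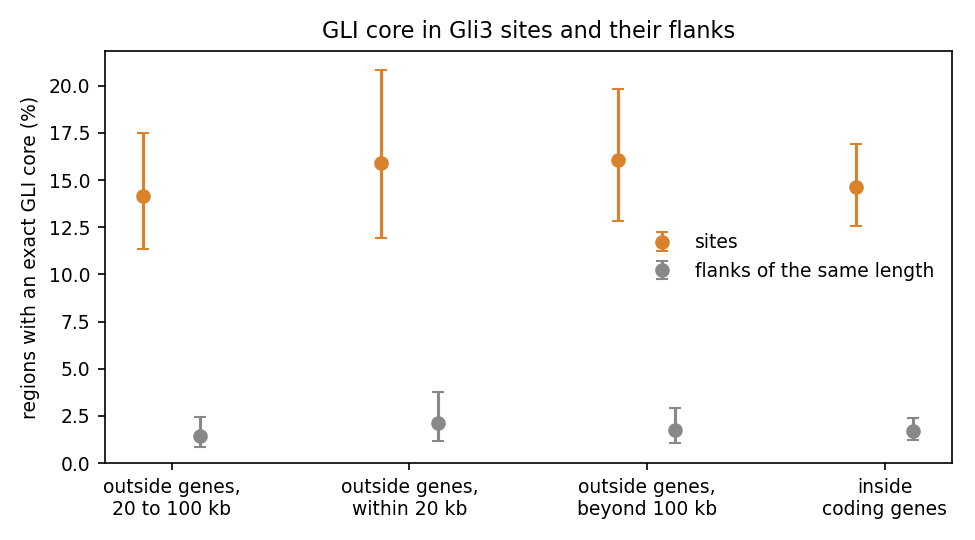
Share of Gli3 sites (orange) and of flanking regions of the same length (gray) with an exact GLI core, in percent, for 4 classes of sites more than 2 kb from any TSS, with 95% Wilson intervals as bars. The sites 20 to 100 kb from a coding TSS are at 14.1%, and their flanks at 1.45%.

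The share of sites with a core did not separate these sites from the other classes away from promoters. It was 15.9% in the 258 sites outside coding genes within 20 kb of a coding TSS, with an odds ratio of 0.872 (95% interval 0.573 to 1.33, two-sided Fisher's exact test, adjusted p = 0.786). In the 424 sites beyond 100 kb it was 16.0% (odds ratio 0.862, 0.599 to 1.24, exact test, adjusted p = 0.750). In the 1020 sites inside coding genes it was 14.6% (odds ratio 0.963, 0.707 to 1.31, exact test, adjusted p = 0.930). The Benjamini-Hochberg adjustment covered all 69 comparisons, which were 17 motifs and 6 properties in each of 3 classes, and 14 of them passed 0.05. That count includes comparisons of upstream position and of noncoding genes, which the definition of the classes shapes, as described below. The intervals leave room for a difference in either direction. With 1 mismatch allowed, 61.3% of the sites held a match against 68.6% inside coding genes (odds ratio 0.723, exact test, adjusted p = 0.0257). Such a match was also in 38.2% of the flanks of the sites. This comparison was not run without the sites of repeated sequence described below.

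**Figure D2:**
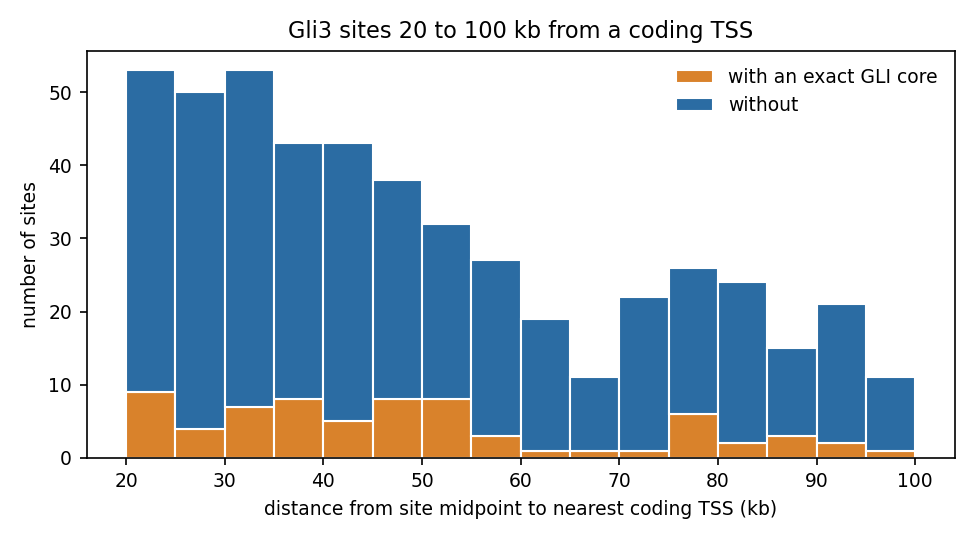
Number of sites by the distance of the site midpoint from the nearest coding TSS, in bins of 5 kb, divided into sites with (orange) and without (blue) an exact GLI core. The stretch from 20 to 40 kb holds 199 of the 488 sites, and sites with a core occur across the whole range.

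Distance from the TSS was spread over the whole range, with a median of 45.5 kb (25th to 75th percentile 31.3 to 68.2 kb). There were 199 sites at 20 to 40 kb, 140 at 40 to 60 kb, 78 at 60 to 80 kb and 71 at 80 to 100 kb. The core was present in 14.1, 17.1, 11.5 and 11.3% of them, with intervals that overlapped. At the lower bound, the closest sites inside were near *Ccna1* (20.008 kb), *Sall1* (20.199 kb) and *Oxtr* (20.216 kb), and those just outside were near *Myl10* (19.945 kb), *Stx6* (19.94 kb) and *Zfp704* (19.739 kb). *Sall1* encodes a zinc finger factor of neural progenitors. At the upper bound, the farthest sites included were near *Wls* (99.84 kb), a Wnt secretion factor, *Insc* (99.297 kb), which orients dividing progenitors, and *Cstad* (97.438 kb). The *Wls* site was 187 bp wide and made of repeated sequence (100%), a limit described below. The first sites left out were near *Hey1* (100.054 kb), a Notch effector, *Sesn3* (100.592 kb) and *Lingo1* (101.093 kb).

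The sites were 179 to 11710 bp wide, with a median of 1892.5 bp (1151.25 to 2693.5 bp). The widest site of the whole list, 11710 bp on chromosome 7 from 79502284 to 79513993, belonged to this group. Its midpoint lay in an intron of *Mir9-3hg*, the host gene of a microRNA that promotes neuronal differentiation. The next in width were 8123 bp near *Irf2bp2*, 7528 bp near *Foxo6* and 7340 bp near *Parp11*. Of these 4 widest sites, the one near *Parp11* held an exact core. There were 44 sites of at least 4000 bp (9.02%), and the share over all listed sites was not counted. The 75th percentile of width was 2744.5 bp within 20 kb, 2653.75 bp beyond 100 kb and 2828 bp inside coding genes. It was 3143.75 bp within 2 kb of a TSS, so this group was not broader than the others by that measure. In all, 51.6% of the sites were wider than 1879 bp, the median of sites away from promoters, against 51.9% within 20 kb, 46.9% beyond 100 kb and 49.9% inside coding genes, and none of these comparisons passed the test.

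The sites were richer in G and C than those farther from genes. The median GC content was 49.5%, and that of the flanks was 46.2%. The share of sites above 48.6% GC, the median of all sites away from promoters, was 57.8% here and 27.1% beyond 100 kb (odds ratio 3.68, 2.78 to 4.86, exact test, adjusted p = 2.24e-19). The flanks of the farther sites were also lower in GC, with a median of 43.3%. Against sites within 20 kb (62.8%) and inside coding genes (52.5%) the difference did not pass the test.

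Sites for other transcription factors were searched as short words on both strands, and 1 match was enough for a site to count. The words were CAGCTG and CAGATG (E-boxes of proneural bHLH factors and of Neurog and Neurod factors), TAATTA (LHX and DLX homeodomains), ACAAAG and ACAATGG (SOX), TTGGCA (NFI factors), ATGCAAAT (POU), CAGCAGG (ZIC), CATTCCA (TEAD), TGANTCA (AP-1), GTTGCCAT (RFX), CTTTGAA (LEF/TCF), GGGCGGGG (SP), TGTTTAC (FOX), TGACAG (MEIS) and CCACNAGGT (part of the CTCF motif). ACAAAG and CTTTGAA overlap in CTTTG when read on opposite strands, and both SOX words begin with ACAA. The ratio of sites to flanks was 1.73 for the SP word (20.5 against 11.8%), 1.27 for RFX and 1.24 for the CTCF part, and the other words lay between 0.877 and 1.21. These ratios cannot be set beside the 9.75 of the GLI core, since most of the words are shorter and common in flanks, as CAGATG was in 77.5% of them. A match describes letters and not a bound factor.

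**Figure D3:**
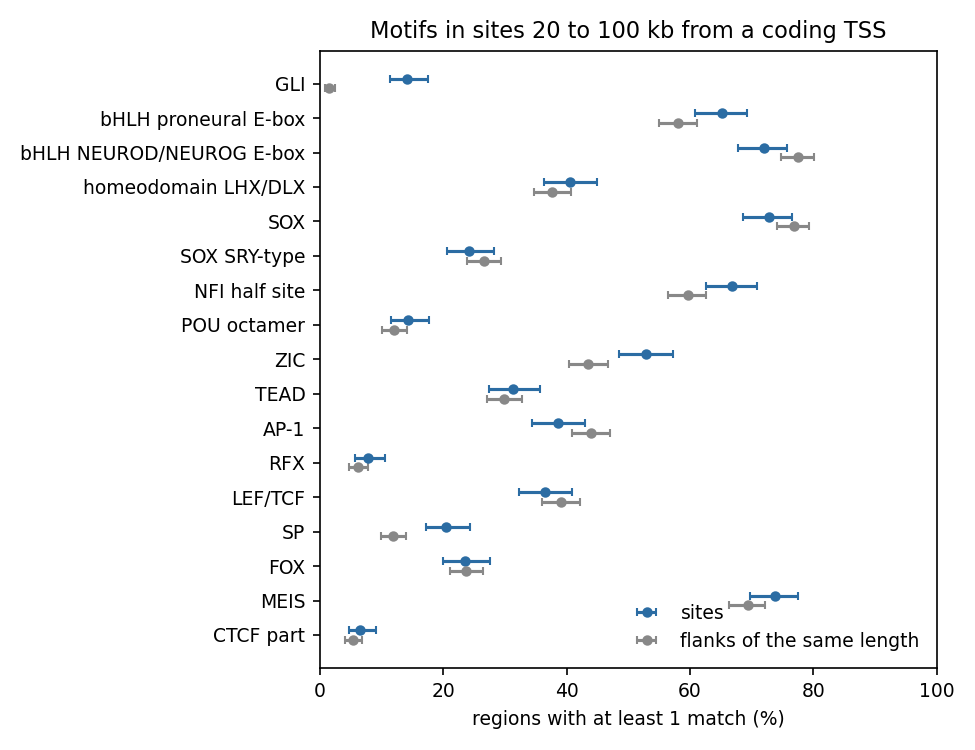
Share of the 488 sites (blue) and of their 965 flanks of the same length (gray) with at least 1 match of each motif, in percent, with 95% Wilson intervals. The GLI core is rare in flanks (1.45%) and in 14.1% of sites, whereas the shares of the other words are closer between sites and flanks. Most of these words are common in both, but RFX (7.79 and 6.11%) and the CTCF part (6.56 and 5.28%) are rare in both.

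Compared with sites within 20 kb, 0 of 17 words differed past the threshold (two-sided Fisher's exact test with Benjamini-Hochberg adjustment, and 0 at an unadjusted p below 0.05). Against sites beyond 100 kb, the SP word was more frequent (20.5 against 9.20%, odds ratio 2.54, 1.71 to 3.78, exact test, adjusted p = 3.47e-05) and the homeodomain word TAATTA less frequent (40.6 against 50.2%, odds ratio 0.676, exact test, adjusted p = 0.0228). The SP word is made of G and C and TAATTA of A and T, and GC content differed between these classes in the same direction. The part of GC content in these differences was not tested. Against sites inside coding genes, the SP word was again more frequent (13.6% there, odds ratio 1.63, exact test, adjusted p = 0.00610). In the central 500 bp the SP word no longer separated the sites from those beyond 100 kb (odds ratio 1.85, exact test, adjusted p = 0.289).

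The E-box words CAGCTG and CAGATG, the SOX word ACAAAG and the NFI word TTGGCA were each less frequent than inside coding genes, by 7.58 to 9.47 percentage points. The SOX word ACAAAG, for example, was in 72.7% of the sites against 80.7% (odds ratio 0.639, exact test, adjusted p = 0.00577), and the NFI word in 66.8 against 76.3% (odds ratio 0.626, exact test, adjusted p = 0.00167). These 4 calls and that of TAATTA were lost when sites made mostly of repeated sequence were left out, an alternative chosen after seeing the data. The adjusted p was then 0.663 for ACAAAG and CAGCTG, 0.326 for CAGATG, 0.225 for TTGGCA and 0.217 for TAATTA (exact tests).

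Repeated sequence was more common among these sites than in the other classes. Of the 32-base words of a site, those found at several places of the genome made up over 50% at 46 sites (9.43%), as compared to 3.49% of sites within 20 kb, 2.36% beyond 100 kb and 1.76% inside coding genes. These shares were not tested. The 46 sites were narrow, with a median width of 530.5 bp against 1946 bp for the others, and 1 of them held the core. Without them the core was in 68 of 442 sites (15.4%).

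Of the 46 sites, 17 lay in 1 interval of 123 kb on chromosome 6 (47650013 to 47773171), between *Ezh2* and *Pdia4*. *Ezh2* encodes the histone methyltransferase of Polycomb repressive complex PRC2, and *Pdia4* a disulfide isomerase of the endoplasmic reticulum. In total 18 sites lay there, 7 with *Ezh2* and 11 with *Pdia4* as the nearest gene, and their median width was 497.5 bp. GENCODE M21 places 0 genes in the interval. RefSeq places 10 there, of which 6 are predicted as protein-coding, 3 as long noncoding RNAs, and 1 is *Rn4.5s*, a small RNA gene at 47654921 to 47655094. With the RefSeq coding genes, 3 of the 18 midpoints would be inside a gene, and these sites would leave the group. Further midpoints lay within 20 kb of both ends of such a gene and would leave it too. Their number was not counted, so the class of the sites here depends on the annotation. The 1 site there with less than 50% repeated words (35.4%) held a core, at 47651248 to 47651256. *Gm21119* on chromosome 8 had 5 sites at 33.5 to 90.3 kb, with 88.1 to 97.0% repeated words and no core. Where reads match several places, the placement of these sites depends on the mapping, and the number of sites per gene there should be read with this limit.

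The 488 sites had 407 different nearest genes, 1.96% of the 20722 coding genes on these chromosomes. Of these genes, 355 were nearest to 1 site, 40 to 2 sites and 12 to 3 or more. Besides *Pdia4*, *Ezh2* and *Gm21119* these were *Foxo6* with 5 sites, *Hsd17b3* with 4, and *Gadd45g*, *Insyn1*, *Pdgfa*, *Polg*, *Ppara*, *Slc1a3* and *Wnt7b* with 3 each.

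**Figure D4:**
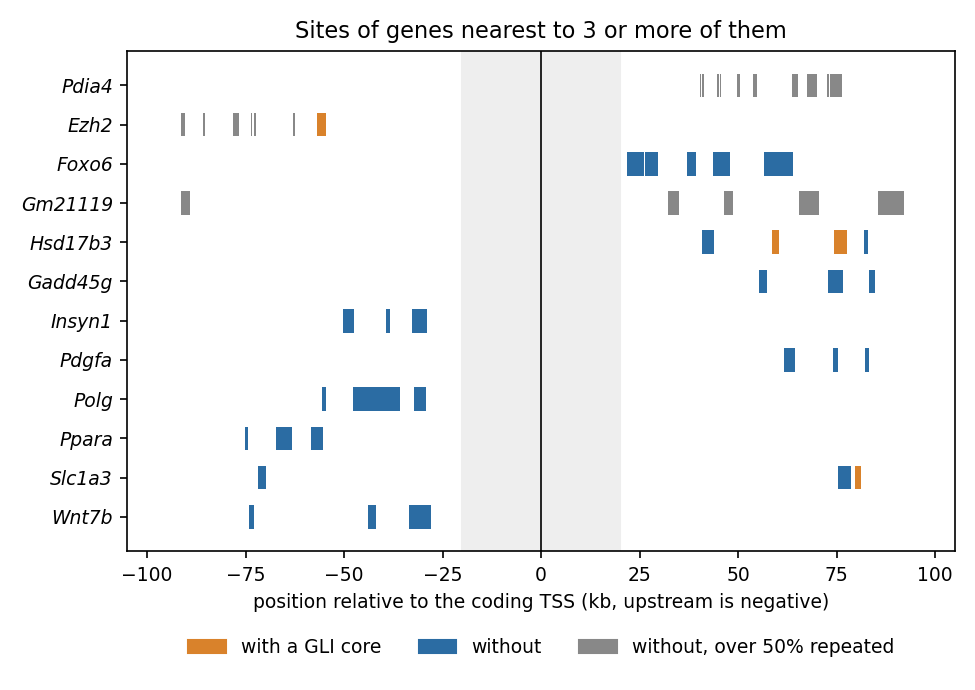
Sites (bars, drawn to scale) of the 12 genes that were nearest to 3 or more sites, by position relative to the nearest coding TSS in kb, with upstream to the left. Orange bars have a GLI core, gray bars consist for more than 50% of repeated sequence and have no core, and the light band marks the 20 kb on either side of the TSS that the definition leaves out.

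*Foxo6*, which encodes a forkhead factor expressed in the brain, had 5 sites on chromosome 4 between 120223299 and 120265441, on the downstream side. They were 2204, 3224, 4184, 4238 and 7528 bp wide, at 24 to 60.3 kb from the TSS, and together covered 21378 bp. None of the 5 had an exact core, and their GC content was 50.6 to 53.7%. A total of 10 listed sites had *Foxo6* as the nearest coding gene, 1 or more of them at its promoter.

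*Wnt7b*, a Wnt ligand made by cortical neurons and progenitors, had 3 sites on its upstream side, of 5401, 2206 and 1224 bp at 30.8, 42.9 and 73.5 kb. Farther along the same interval, 3 sites of 619, 3969 and 3018 bp were nearest to *Ppara*, a lipid-sensing nuclear receptor, at 56.8 to 74.8 kb. The midpoints of the last site of *Wnt7b* and of the 3 of *Ppara* lay in introns of *Lncppara*, the noncoding gene with the most sites. All 6 also had a *Wnt7b* TSS within 100 kb, and a seventh site on the downstream side, 98.3 kb away, had *7530416G11Rik* as the nearest gene. None of the 7 had an exact core. The sites were GC-rich, with 51.8 to 61.0% for the 6 on the upstream side.

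*Gadd45g*, a growth arrest gene of differentiating progenitors, had 3 sites of 1894, 3846 and 1543 bp, 56.3, 74.7 and 84.1 kb downstream. The next coding TSS on the other side, that of *Diras2*, was over 600 kb from each. The middle site overlapped enhancer mm1565, which drives reporter expression in the neural tube, hindbrain, midbrain and forebrain. *Pdgfa*, the ligand of the receptor that marks oligodendrocyte precursors, had 3 sites of 1055, 1226 and 2853 bp, 63.1 to 82.8 kb downstream. *Insyn1*, a component of inhibitory synapses, had 3 sites of 2693, 941 and 4013 bp, 30.9 to 49.0 kb upstream. No core was found in the sites of these 3 genes.

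*Slc1a3*, which encodes the glutamate transporter GLAST of radial glia and astrocytes, had sites on both sides. One of 2042 bp lay 70.9 kb upstream, and those of 3259 and 1574 bp lay 77.0 and 80.4 kb downstream of the TSS. The last held the core shown above, 356 bp from its midpoint.

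*Hsd17b3* had 4 sites on chromosome 13 (63980200 to 64022243), 42.4 to 82.4 kb from its TSS, and 2 of them had a core. This gene encodes a steroid dehydrogenase of testis. *Ptch1*, the Shh receptor and a known Gli target, lies on the same chromosome. Together with 2 sites nearest to *Ercc6l2*, the sites lay 146.6 to 447.1 kb from the *Ptch1* TSS, and 4 of the 6 had a core. The *Ercc6l2* sites were 1954 and 1839 bp wide, at 146.6 and 328.1 kb from *Ptch1*. The 4 core sequences are given next, because this was the largest number of sites within 500 kb of any of the 22 genes of the Shh pathway list. The 500 kb limit was chosen after the positions had been seen.
*Ercc6l2*, first site, chr13:63719737-63719745, plus strand: caggcaggaaGACCACCCAcaggcaagcg
*Ercc6l2*, second site, chr13:63901500-63901508, minus strand: accaaagctgGACCACCCAcggcgtcacg
*Hsd17b3*, site of 3325 bp, chr13:63988535-63988543, minus strand: aataaacagaGACCACCCAaggagagcaa
*Hsd17b3*, site of 1771 bp, chr13:64003311-64003319, plus strand: tcttcacagaGACCACCCAcatggctggg

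Counting *Ptch1*, 9 of the 22 genes (40.9%) had a site of this group within 500 kb, against 17.2% of all coding genes at that limit, and these shares carry no test. *Kif7*, the kinesin of the cilium tip, had 4, and all 3 *Polg* sites with the widest site of the list were among them, at 192.7 to 217.2 kb. *Ccnd1* had 3 and *Ccnd2* had 2, both of them G1 cyclins, and the farther of the *Ccnd2* sites was the 7340 bp site near *Parp11*, which held a core 252.4 kb away as measured from the site midpoint. *Nkx6-2* and *Sfrp1* had 2 sites each, and *Cdon*, *Gas1* and *Gli1* had 1. The other 13 genes, among them *Shh*, *Smo*, *Gli2* and *Gli3*, had 0.

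Genes of 8 lists of the Shh pathway and cortical development were counted when they were the nearest coding gene of a site, and again when a TSS was within 100 kb of a site. Of 206 genes, 17 (8.25%) were nearest to a site, against the 1.96% of all coding genes given above, and 20 (9.71%) had a site within 100 kb, against 3.83% of all coding genes. The shares carry no test, since the lists and sites were chosen with earlier results known. By the definition, only genes beside long stretches without a coding TSS can be nearest to a site. Whether the list genes lie beside such stretches more often than other coding genes was not tested. By list, nearest genes were 5 of 23 cortical progenitor and area factors, 4 of 20 gliogenic genes, 4 of 33 Wnt, Bmp and Fgf genes, 2 of 22 Shh pathway genes, and 1 each of 21 ventral, 23 layer and 26 axon guidance genes. *Gas1* is in 2 of the lists. None of the 39 *Hox* genes, which are not expressed in the cortex, had a site within 100 kb. These genes lie in clusters and are not independent, and the share of all coding genes was itself only 3.83%. Their absence therefore cannot serve as a negative control.

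**Figure D5:**
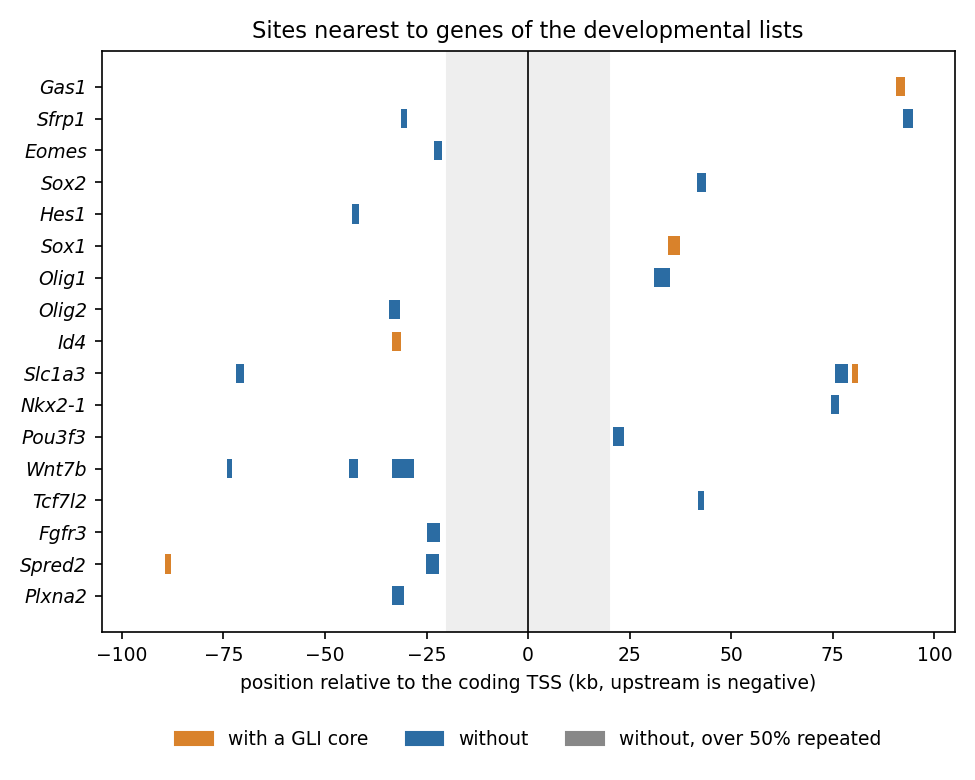
Sites (bars, drawn to scale) nearest to the 17 genes of the developmental lists, by position relative to the TSS in kb, with upstream to the left. The orange bars, with a GLI core, are at *Gas1*, *Sox1*, *Id4*, *Slc1a3* and *Spred2*, and no site here consisted mostly of repeated sequence.

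Among Shh pathway genes, *Gas1* encodes a coreceptor that binds Shh, and its site of 2305 bp lay 91.7 kb downstream with a core 125 bp from the midpoint. *Sfrp1*, a secreted Wnt antagonist of the ventricular zone, had a site of 1582 bp 30.6 kb upstream and one of 2525 bp 93.5 kb downstream, without a core.

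Among progenitor factors, *Sox1*, an early neural SOXB1 gene, had a site of 3003 bp 35.9 kb downstream, with a core. Another 2 sites of the group, at 81.3 and 91.8 kb, had other nearest genes. *Sox2*, a factor of neural stem cells, had a site of 2193 bp 42.7 kb downstream. *Hes1*, a Notch effector, had one of 1554 bp 42.5 kb upstream, and *Eomes*, which marks intermediate progenitors of neurons, had one of 1879 bp 22.1 kb upstream. None of these last 3 held the core. *Neurog1*, a proneural bHLH gene, had a site 43.2 kb downstream whose nearest gene was *Tifab*.

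Among gliogenic genes, *Id4*, an inhibitor of bHLH factors, had a site of 2311 bp 32.4 kb upstream with a core 450 bp from the midpoint. The 3 sites around *Olig1* and *Olig2*, which encode bHLH factors of the oligodendrocyte lineage, all met the definition and were at 45.4, 32.8 and 33.0 kb from their nearest genes *4932438H23Rik*, *Olig2* and *Olig1*. The first of these held a core and overlapped enhancer mm817.

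In the remaining lists, *Spred2*, an inhibitor of Ras and MAPK signaling, had sites of 1369 bp with a core 88.6 kb upstream and of 3180 bp 23.6 kb upstream. *Fgfr3*, a receptor of cortical progenitors and astrocytes, had its nearest site, of 3421 bp, 23.3 kb upstream, and another 2 sites of 2958 and 3249 bp next to it were assigned to *Tacc3*. *Tcf7l2*, a Wnt effector, had 1 site of 1568 bp at 42.5 kb. *Nkx2-1*, a ventral telencephalic factor, had one of 1903 bp 75.5 kb downstream. *Pou3f3*, a factor of upper layer neurons, had one of 2751 bp at 22.3 kb, and *Cux2*, another upper layer factor, had one of 2746 bp at 30.5 kb whose nearest gene was *Myl2*. *Plxna2*, a semaphorin receptor, had one of 3060 bp 32.1 kb upstream.

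Noncoding genes held 70 of the sites (14.3%), in 64 genes, and in 5 of them the midpoint was in an exon. Of the 70, 53 were in lincRNA genes and 11 in antisense genes. The share inside coding genes was 3.04% (odds ratio 5.34, 3.45 to 8.28), but a noncoding gene that overlaps a coding gene is itself constrained by this division. That difference follows largely from the definition, so no p-value is given and it is not read as a result about Gli3. The share was 8.91% within 20 kb and 15.8% beyond 100 kb, and neither differed past the threshold. Besides *Lncppara*, the noncoding genes with 2 sites were *Mir9-3hg*, *Nkx2-2os*, *Gm13832*, *Gm16863*, *Gm26804*, *Gm32585*, *Gm48486*, *Gm49539* and *4930546K05Rik*. *Nkx2-2os* runs opposite to *Nkx2-2*, a ventral Shh target gene. The core was in 10 of the 70 sites (14.3%, 7.95 to 24.3%) and in 59 of the 418 others (14.1%, 11.1 to 17.8%).

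MicroRNA genes within 10 kb of a site included those of miR-9 and miR-124, which are abundant in neural progenitors and neurons. Distances were measured from the site midpoint. *Mir9-3* was 2.79 kb from the midpoint of the 11710 bp site, whose width places the gene inside it. It was 8.23 kb from the midpoint of the 3057 bp site next to that one. *Mir9-1* was 4.40 kb from a site of 1887 bp nearest to *Rhbg*, and *Mir124a-1* was 4.03 kb from a site of 2298 bp nearest to *Kif13b*. The same 2 sites also had *Mir3093* and *Gm25641*, and *Mir3078*, within 10 kb. The other microRNA genes within 10 kb were *Mir1a-1* (9.43 kb), a muscle microRNA, *Mir6380* (3.35 kb), *Mir7680* (8.24 kb), *Gm22120* (9.44 kb) and *Gm26445* (2.48 kb). The site next to *Gm26445* consisted of 86.5% repeated words. None of these sites held the core.

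Enhancers annotated by RefSeq include the VISTA collection, fragments tested for reporter expression in transgenic mouse embryos. The stage of those embryos was not matched to embryonic day 15, and a forebrain record covers more tissue than the cortex. Annotated enhancers, of which there were 1006 on these chromosomes, were overlapped by 17 of the 488 sites (3.48%, 2.19 to 5.51%), against 1.79% of all listed sites. The share was 3.49% of sites within 20 kb, 2.45% inside coding genes, 1.18% beyond 100 kb and 0.871% within 2 kb of a TSS, and it was not tested between classes. The collection was chosen by its makers partly on conservation and chromatin in such regions, so that the share depends on what was tried. The 17 sites met 18 enhancers, all of them of VISTA, and 10 sites met one that was active in the forebrain. Of 617 VISTA enhancers on these chromosomes, 166 (26.9%) were recorded as forebrain-active, which is a share of enhancers and not of sites. In the other classes, the sites that met a forebrain enhancer were 3 of 9 within 20 kb and 2 of 5 beyond 100 kb. Inside coding genes they were 10 of 25, and within 2 kb of a TSS 2 of 16. These counts were not tested.

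The enhancer mm1122, active in the forebrain of 7 of 7 embryos and in no other recorded structure, contained the whole of a 2330 bp site with a core, 79.8 kb upstream of *Spata13* and 176.5 kb from *Amer2*. The enhancer mm817 was forebrain-active in 9 of 11 embryos and covered 90.6% of the site 84.956 kb upstream of *Olig2*. The enhancer mm569, 76.3 kb upstream of *Hmga2*, a chromatin protein of early neural stem cells, was forebrain-active in 7 of 11 embryos, and its site also held a core. Thus 3 of the 10 sites that met a forebrain enhancer had a core, a count too small to compare with the 14.1% of all.

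Other forebrain enhancers had sites without an exact core. The 8123 bp site near *Irf2bp2*, the second widest, met mm1295 (forebrain in 6 of 9 embryos), and a site 58.1 kb from *Medag* met mm1702 (6 of 10). Sites near *Tob1* (mm1496, 3 of 6), *Cdk5rap3* (mm876, 4 of 9, and mm999, 3 of 4), *Gadd45g* (mm1565, 3 of 6) and *Noxa1* (mm1454, 3 of 4) met enhancers that were recorded in the forebrain as well. The *Noxa1* site lay 53.7 kb from *Nrarp*, a Notch feedback gene, on the other side. The 7 remaining sites met enhancers recorded in the hindbrain, neural tube, limb, heart and other structures but not the forebrain.

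The neighborhood of the sites was also compared between classes. The nearest other listed site was a median of 67.7 kb away (23.0 to 212.3 kb), and 68 sites (13.9%) had another within 10 kb, more often than beyond 100 kb (7.08%, odds ratio 2.13, exact test, adjusted p = 0.00610). The share was 14.7% within 20 kb (exact test, adjusted p = 0.906) and 15% inside coding genes (exact test, adjusted p = 0.786). A median of 2 coding genes had a TSS within 100 kb. The nearest gene had a site of its own at a promoter in 100 cases (20.5%), more often than beyond 100 kb (13.7%, odds ratio 1.63, exact test, adjusted p = 0.0412). The corresponding shares were 15.5% within 20 kb (exact test, adjusted p = 0.316) and 21.7% inside coding genes (exact test, adjusted p = 0.786). Without the repeated sites, the odds ratios against sites beyond 100 kb were 1.72 (adjusted p = 0.179) and 1.56 (adjusted p = 0.137, exact tests), so both calls were lost. With the widest site per nearest gene they were lost as well, at 2.08 (adjusted p = 0.189) and 1.29 (adjusted p = 0.585, exact tests).

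The sites were upstream of the nearest coding gene in 270 of 488 cases (55.3%). The share was lower than the 70.5% of sites within 20 kb (odds ratio 0.517, exact test, adjusted p = 7.81e-04) and higher than the 45.8% beyond 100 kb (odds ratio 1.47, exact test, adjusted p = 0.0228). It was also above the 29.3% inside coding genes (odds ratio 2.99), a class that the definition places mostly downstream of a TSS. That difference follows largely from the definition, so no p-value is given for it. Leaving out gene bodies removes downstream positions close to a TSS in the same way. The comparisons with sites within 20 kb and beyond 100 kb are shaped by this too, and no conclusion is drawn from them. The core was present in 13.7% of upstream sites (10.1 to 18.3%) and 14.7% of downstream sites (10.6 to 19.99%), with intervals that overlapped over most of their length.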

How the data were processed

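The 3 Gli3 ChIP and 3 input libraries of E15 wild-type cortex were sequenced, and the authors deposited 1 list of chromosome, start, end and name for the optimal IDR set. Per the file header and the labels, reads of 85 bases from each end were mapped with Bowtie2 to mm10, and SAMtools and MACS2 were used; thresholds were not given in the sources used here. The deposited values are positions, so depth is unknown. Starts were converted to 1-based positions. Sequence was GRCm38.p6, genes were GENCODE M21, and enhancers and microRNAs came from annotations of the same assembly. Flanks lay 1 width from each edge, and 11 of 976 were left out for assembly gaps or a chromosome end. Classes were compared with Fisher's exact test, two-sided, at an adjusted p of 0.05 (Benjamini-Hochberg). Neighboring sites share a locus, so that exact p-values over sites are approximate. The search and tests were checked on simulated data, in which 200 of 200 planted cores were found. Genes were named if nearest to 3 or more sites, or if in a list and nearest to a site with a core or among the 3 genes with the most sites of a list. Sites with 2 or more cores, noncoding genes with 2 or more sites, microRNA genes within 10 kb and the 3 sites on either side of each bound were also named. The other list genes, the enhancers, the widest sites and the Shh genes within 500 kb were chosen after values were seen. The members and lists were chosen with earlier results of these data known. Python 3.11.15, scipy 1.17.1 and pysam 0.24.0 were used. The details of 1 site that met a forebrain enhancer are not reported here.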

Additional observations from a re-analysis of the deposited data

How the results depend on the processing

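The ratio of the GLI core in sites to flanks stayed above 1 under each alternative run, but its size moved. It was 21.8 in the central 500 bp, 1.60 with 1 mismatch allowed and 4.69 with flanks 5 kb away. The odds ratios of the core against other classes crossed 1 in the central 500 bp, at 1.10 against sites within 20 kb, 1.03 beyond 100 kb and 1.23 inside coding genes, and without the repeated sites the last was 1.04. Inside coding genes it was 0.723 with 1 mismatch, past the threshold, in a setting that was not run without the repeated sites. None of the other core comparisons passed 0.05. The number of comparisons of other motifs with a class that passed the threshold, 7 over 6 words, was 3 in the central 500 bp, 2 with the widest site per nearest gene and 2 without repeated sites. In the last 2 settings both were of the SP word, against sites beyond 100 kb and inside coding genes. The odds ratio of CAGATG against inside coding genes was 1.00 in the central 500 bp. The cause of these changes was not tested. The number of property comparisons past the threshold, 7, was 5 with the widest site per nearest gene and 5 without repeated sites. Each of these counts includes the comparisons of upstream position and noncoding genes that the definition shapes. No paired analysis was possible because the replicates were joined into 1 list, and for the same reason no replicate could be left out. Depth and peak heights are unknown, so weak and strong sites were weighted equally. No sample groups could be examined for outlying values.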
